A study of Mus musculus with 18 samples.

Results

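The comparison described here is that of multipotent progenitors (MPPs) from mice given tamoxifen with MPPs from mice given oil. Its members are the 3 tamoxifen and the 3 oil libraries whose columns carry the MPP and 1 week labels, 6 of the 18 libraries of the series, and all 14419 genes of the table were compared between them. Both groups were sorted from the marrow of C57BL/6 males, adult at treatment. The first group had received tamoxifen for 1 week and the second corn oil, the vehicle, for the same time. The other 12 libraries came from mice of the same strain, sex and stage treated for 2 weeks, with 3 tamoxifen and 3 oil libraries each of LT and of ST cells, the field's names for long-term and short-term repopulating stem cells of the blood. The study's title places the work on estrogens, the self-renewal, survival and proliferation of blood progenitors, and myeloproliferative disease. The design text calls the 3 libraries of a group biological replicates, while no source used here gives the dose of tamoxifen, the gates of the sort or the number of mice behind a library.

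MPPs are bone marrow cells that can still form every blood lineage but have lost the long-term self-renewal of stem cells, and they lie upstream of the lymphoid, granulocyte-monocyte and erythroid branches. Tamoxifen is turned in the liver into metabolites that bind the estrogen receptors, and in different tissues the bound receptor acts as if estrogen were present or as if it were blocked. The receptor is a transcription factor that binds DNA at estrogen response elements or through other factors.

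The 6 libraries held 3558988 to 5279821 reads in listed genes with tamoxifen, against 3664203 to 3928747 with oil, so that 1 read was worth 0.203 to 0.286 normalised CPM (whole read counts scaled by 1 constant per library). The 2 mitochondrial ribosomal RNAs took 18.7% to 22.2% of the reads with tamoxifen, against 20.5% to 21.7% with oil. The log2 values of libraries of the same group correlated across genes at r = 0.970 to 0.980, and those of a tamoxifen and an oil library at r = 0.968 to 0.977. On the first principal component, with 26.9% of the variance, the tamoxifen libraries lay at 8.95, 16.5 and 25.6, and the oil libraries at -28.6, -25.2 and 2.69. Oil library 3 thus lay nearer to tamoxifen library 1 than to the other oil libraries on this axis. Among the other 12 libraries, 1 LT tamoxifen library stood apart, with 25.5% mitochondrial ribosomal RNA against 17.7% to 18.7% in the other LT libraries. In ST cells 1 tamoxifen library reached 24.4%. Protein genes encoded by mitochondria took 3.99% of the reads of that LT library, against 1.18% to 1.77% in all other libraries of the series. The LT library enters the shared estimate of the spread.

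Several marker genes matched the MPP label in oil, though not all of those looked at parted MPPs from ST cells. Flt3, the cytokine receptor that rises as stem cells become MPPs, stood at 646 to 703 normalised CPM in MPPs, against 50.5 to 119 in LT cells and 92.9 to 197 in ST cells. Slamf1, which encodes the stem cell marker CD150, stood at 0.405 to 1.29 in MPPs, against 18.2 to 30 in LT cells and 8.06 to 25.2 in ST cells. Cd48 stood at 65.3 to 82.6 in MPPs, against 7.13 to 13.7 in LT cells and 81.9 to 109 in ST cells. Dntt, the DNA polymerase that edits antigen receptor genes, stood at 394 to 463 in MPPs, against 15.9 to 23.8 in LT cells and 27.3 to 47.6 in ST cells. Kit (794 to 910) and Ly6a (64.6 to 88.2), the genes of the c-Kit and Sca-1 antigens of immature marrow cells, were both present in MPPs. Kit was higher in LT cells (1032 to 1152). Cd34, Satb1 and Mki67 were higher in MPPs than in every LT and ST oil library, and Procr and Vwf lower. Fgd5 stood at 14.4 to 27.7 in MPPs and 17.7 to 23.5 in ST cells, against 77.0 to 80.1 in LT cells. Mpo overlapped between MPPs (623 to 1018) and ST cells (945 to 1185).

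Promoter sequences are shown for 3 genes whose levels or gene groups recur in the results below, chosen from a longer list of genes searched for several motifs. They come from RefSeq (GRCm38.p6), each from 250 bases before to 50 bases after a gene's annotated start, read on the gene's own strand, and 6 of the 8 genes that passed the test had an entry. Asns, the asparagine synthetase gene, lies on the minus strand, and its window is chr6:7693160-7693459. Ermap, a gene of the red cell membrane, lies on the minus strand with its window at chr4:119189946-119190245. Hspa5, which encodes the endoplasmic reticulum chaperone BiP, lies on the plus strand with its window at chr2:34771840-34772139. Capitals mark a match to TGATGNAA (the C/EBP-ATF element of amino acid response genes) in Asns, to a GATA site (AGATAA, or the same letters with T as the first, here read on the other strand) in Ermap, and to the endoplasmic reticulum stress element (a CCAAT box followed at a fixed distance by CCACG) in Hspa5.
Asns: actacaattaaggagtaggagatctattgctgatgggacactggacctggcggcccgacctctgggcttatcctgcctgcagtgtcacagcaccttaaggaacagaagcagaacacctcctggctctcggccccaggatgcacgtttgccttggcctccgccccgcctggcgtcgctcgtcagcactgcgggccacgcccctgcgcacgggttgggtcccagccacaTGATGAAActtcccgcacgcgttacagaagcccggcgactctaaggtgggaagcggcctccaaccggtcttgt
Ermap: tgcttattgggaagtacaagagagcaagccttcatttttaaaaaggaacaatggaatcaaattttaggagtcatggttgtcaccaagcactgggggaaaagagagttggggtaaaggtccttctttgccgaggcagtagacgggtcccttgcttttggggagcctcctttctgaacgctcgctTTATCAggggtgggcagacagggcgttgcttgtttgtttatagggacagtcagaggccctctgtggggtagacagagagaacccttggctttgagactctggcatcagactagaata
Hspa5: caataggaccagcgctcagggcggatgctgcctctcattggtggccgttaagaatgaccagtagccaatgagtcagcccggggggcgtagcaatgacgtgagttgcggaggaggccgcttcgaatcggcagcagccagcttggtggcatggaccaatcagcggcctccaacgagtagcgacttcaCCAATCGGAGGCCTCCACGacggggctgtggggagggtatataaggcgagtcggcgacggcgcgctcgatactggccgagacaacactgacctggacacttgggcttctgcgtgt
The match in Asns lies 23 to 16 bases before the start, that in Ermap 67 to 62 bases before it and that in Hspa5 65 to 47 bases before it. On either strand, TGATGNAA occurred in 3.97% of the 32851 promoters of the table, the GATA letters in 18.6% and the stress element in 0.119%. Both annotated promoters of Greb1, the classical estrogen-induced gene, were searched for the full estrogen response element (GGTCA, then a spacer of 3 bases, then its reverse complement TGACC), which 0.07% of promoters held, and neither window held it. One arm of it, GGTCA, with 1 match in one Greb1 window and 2 in the other, occurred in 40.5% of promoters. The genes shown are not all that were searched. A GATA site also lay in a window of Aldh1a1 and in that of Cpox. Both windows of 2900026A02Rik, a gene that fell, held GGTCA or its reverse complement, and that of Slc22a3 held no match. The data hold no measurement of factor binding.

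Few single genes passed the test of tamoxifen against oil in MPPs. With limma, 8 of 14419 genes passed an adjusted p of 0.05 (0.0555% of genes), 5 higher (0.0347%) and 3 lower (0.0208%). A gene that did not pass may still have changed, and the count ran from 0 to 102 over the other settings described below. The genes that rose were Greb1, Asns, Aldh1a1, Ank1 and Ermap, and those that fell were Slc22a3, Pdgfrb and 2900026A02Rik. The median log2 difference over all genes was -0.00014, and the middle 90% of genes lay between -0.49 and 0.52. At an unadjusted p under 0.05 there were 819 genes (5.68%), 455 higher (3.16%) and 364 lower (2.52%). The groups did not overlap in 2147 genes (14.9%), with tamoxifen higher in 1105 (7.66%) and lower in 1042 (7.23%).

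**Figure D1:**
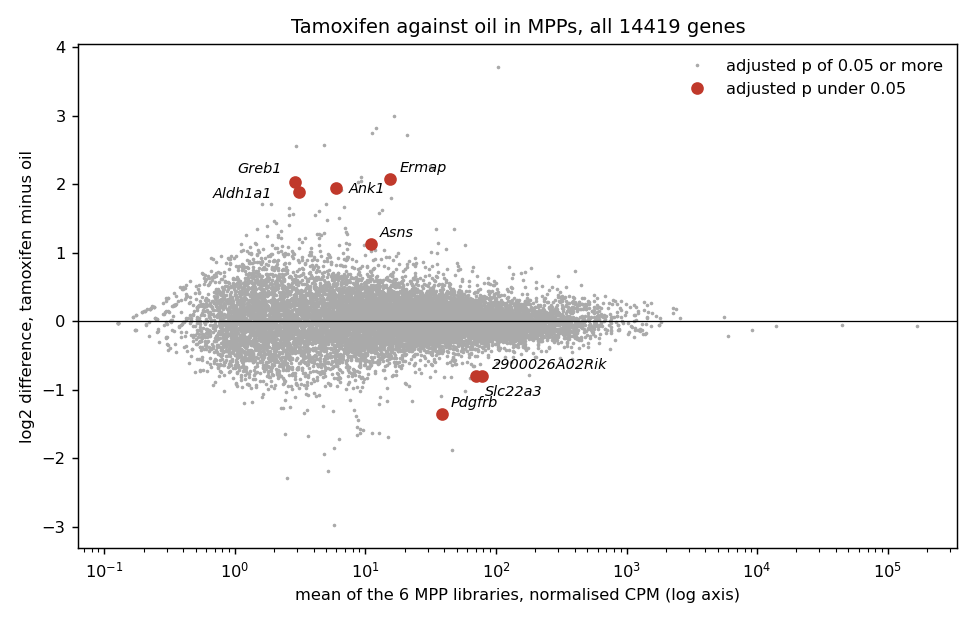
Log2 difference between tamoxifen and oil in MPPs (vertical axis, on the log2(value + 1) scale) against the mean of the 6 MPP libraries (horizontal axis, normalised CPM, log scale) for all 14419 genes. Red points are the 8 genes with an adjusted p under 0.05, 5 above and 3 below 0, and several grey points lie farther from 0 than they do.

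Greb1 (ENSMUSG00000036523) is known as an early target of estrogen receptor alpha and a coactivator of it in human breast cancer cells. Its level was 2.94, 6.24 and 6.70 normalised CPM in the tamoxifen libraries, against 0.135, 0.716 and 0.66 in the oil libraries. It was low in every library and the groups did not overlap. The log2 difference was 2.03 ± 0.36 (SE, limma adjusted p = 0.0305), resting on 64 reads with tamoxifen and 4 with oil. Of 14 measured genes listed as estrogen receptor targets, 8 lay above 0 (50% of all genes did), Greb1 passed, and no other member had an unadjusted p under 0.05. In 3 of the 14 (Greb1, Xbp1 and Ctsd) every tamoxifen library lay above every oil library (7.66% of all genes). In 0 every one lay below (7.23% of all genes). Xbp1, a transcription factor of the unfolded protein response that estrogen induces in human breast cancer cells, stood at 111, 109 and 106 with tamoxifen, against 93.6, 74.6 and 98.1 with oil (adjusted p = 0.884 with limma). The receptor's own gene Esr1 stood at 49.8, 62.3 and 64 with tamoxifen, against 80.9, 87.5 and 66.9 with oil. All 3 tamoxifen values lay below the oil values, by a log2 difference of -0.41 ± 0.28 that did not pass (limma adjusted p = 0.936).

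Asns (ENSMUSG00000029752) makes asparagine and is a known target of the factor ATF4 when amino acids run short or the endoplasmic reticulum is stressed. It stood at 15.3, 16.9 and 14.1 normalised CPM with tamoxifen, against 7.16, 6.44 and 5.94 with oil, the evenest pattern of the 5 genes that rose. All 3 tamoxifen libraries lay far above all 3 oil libraries. The log2 difference was 1.13 ± 0.20 (SE, limma adjusted p = 0.0305). Of 33 measured genes of the integrated stress response, Asns alone passed, 23 lay above 0 and the median log2 difference was 0.17. Slc7a5, a subunit of the large neutral amino acid transporter, stood at 87.8, 80.9 and 92.8 with tamoxifen, against 80.9, 61.4 and 67.5 with oil (limma adjusted p = 0.861). The genes that charge transfer RNAs in the cytosol lay above 0 in 19 of 20 cases, with a median of 0.12 and none at an unadjusted p under 0.05.

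Aldh1a1 (ENSMUSG00000053279) encodes a retinaldehyde dehydrogenase, which makes retinoic acid and is used as a marker of stem cells in several tissues. It stood at 4.57, 8.96 and 2.99 normalised CPM with tamoxifen, against 1.22, 0.43 and 0.396 with oil, and had the smallest p of all genes. The log2 difference was 1.88 ± 0.29 (SE, limma adjusted p = 0.00592), resting on 71 and 6 reads. Dhrs3, which reduces retinal back to retinol, stood at 28.7, 30.1 and 46.9 with tamoxifen, against 58.5, 60.6 and 41.1 with oil, so that its groups overlapped (limma adjusted p = 0.861). Of 19 measured genes of retinoid metabolism and its receptors, Aldh1a1 alone passed and 11 lay above 0.

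Ank1 (ENSMUSG00000031543) and Ermap (ENSMUSG00000028644) belong to the red cell membrane: ankyrin 1 ties the spectrin skeleton to the membrane, and ERMAP is an adhesion protein that carries blood group antigens in humans. Ank1 stood at 5.18, 18.9 and 6.70 normalised CPM with tamoxifen, against 1.76, 1.00 and 1.98 with oil. Ermap stood at 11.9, 43.2 and 23.2 with tamoxifen, against 3.65, 6.16 and 4.62 with oil. In both genes tamoxifen library 2 was the highest of the 6 and the groups did not overlap. The log2 difference was 1.95 ± 0.35 for Ank1 (SE, limma adjusted p = 0.0351) and 2.07 ± 0.34 for Ermap (limma adjusted p = 0.0491).

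Among the genes that fell, Pdgfrb (ENSMUSG00000024620) encodes a receptor tyrosine kinase for platelet-derived growth factor. It stood at 17.6, 15.5 and 32.9 normalised CPM with tamoxifen, against 55.3, 64.0 and 46.3 with oil, and the log2 difference was -1.35 ± 0.27 (SE, limma adjusted p = 0.0491). Pdgfrb was also on the list of stroma and endothelium markers, of which it alone passed (11 measured, 7 below 0). Slc22a3 (ENSMUSG00000023828), a transporter of organic cations such as monoamines, stood at 51.9, 58.6 and 42.9 with tamoxifen, against 88.0, 96.4 and 84.6 with oil. Its log2 difference was -0.81 ± 0.15 (SE, limma adjusted p = 0.0403), and of the 8 measured members of its family it alone passed. The gene with the provisional symbol 2900026A02Rik (ENSMUSG00000051339) stood at 54.1, 57.5 and 58.3 with tamoxifen, against 106, 117 and 78.5 with oil. Its tamoxifen libraries lay close together and the log2 difference was -0.80 ± 0.16 (SE, limma adjusted p = 0.0491).

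**Figure D2:**
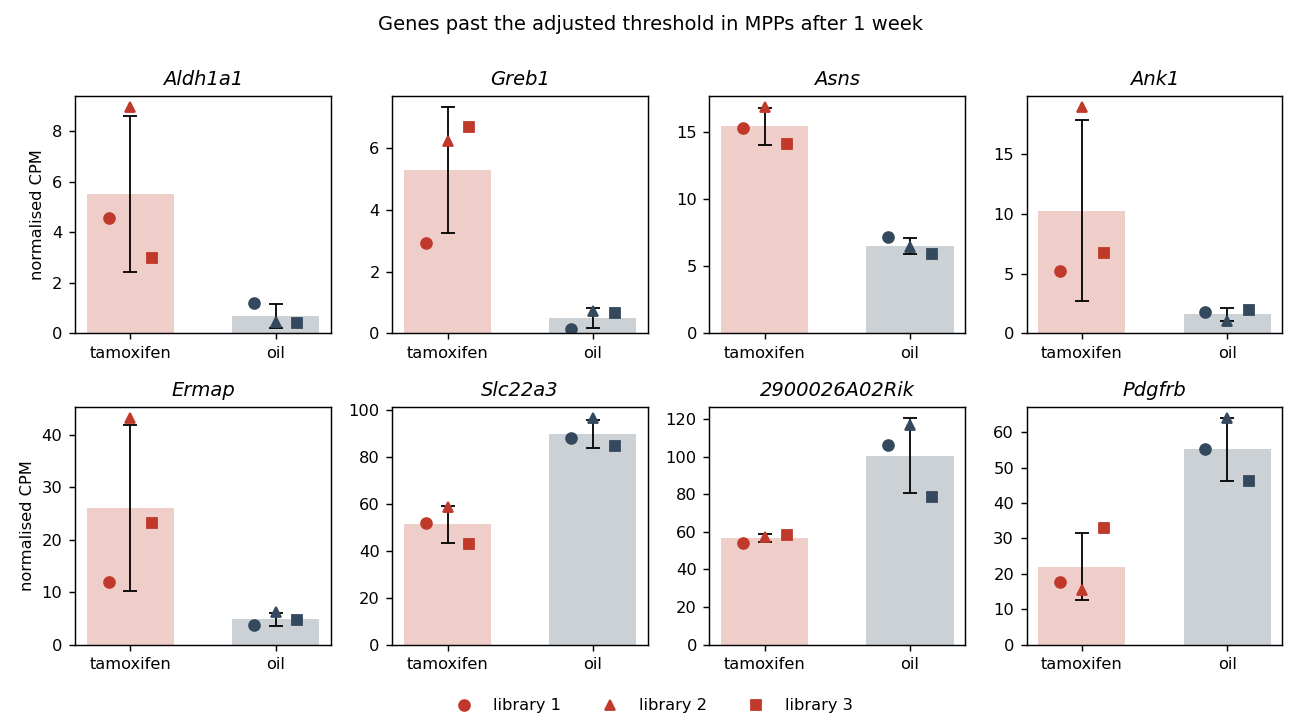
Level in normalised CPM (vertical axes, each from 0) of the 8 genes past the adjusted threshold in the 3 tamoxifen MPP libraries (red, left) and the 3 oil MPP libraries (grey, right). Points are libraries with the shape giving the number, bars are means and error bars are SD (n = 3 each). No gene's groups overlap, and in Aldh1a1, Ank1 and Ermap tamoxifen library 2 stands well above the other tamoxifen libraries.

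The calls were sensitive to the loss of single libraries. Such a loss also leaves fewer libraries in a group, so a gene can drop out without leaning on the library removed. Asns, with even values in both groups, was lost without oil library 1 or 2 and without any 1 of the tamoxifen libraries. None of the 8 genes, nor any other gene, passed when tamoxifen library 2 was left out (725 genes at an unadjusted p under 0.05) or when oil library 2 was (560). Leaving out oil library 1 gave 1 gene, tamoxifen library 3 gave 3, and oil library 3 gave 40. With each MPP library left out in turn, 2.18% to 3.39% of all genes were higher at an unadjusted p under 0.05, and 1.55% to 2.89% were lower. The log2 differences kept their direction in each of these fits, with Ank1 at 1.44 and Ermap at 1.63 without tamoxifen library 2. Fitting the 6 MPP libraries alone gave 19 genes, of which 3 were among the 8, and leaving the LT tamoxifen library that stood apart out of the shared fit gave 22, with all 8 among them.

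Behind the 8 genes came a group that did not pass but whose libraries did not overlap: among genes with levels above that of the median gene, the 12 higher and 12 lower with the smallest p were taken, with adjusted p from 0.064 to 0.488 in limma. Car1, an erythroid carbonic anhydrase, had the smallest p of these, at 22.6, 81.8 and 55.5 normalised CPM with tamoxifen, against 6.08, 11.9 and 9.90 with oil (limma adjusted p = 0.064). Slc16a1, a lactate transporter, stood at 53.3, 56.6 and 50.3 with tamoxifen, against 27.4, 33.1 and 32.6 with oil (limma adjusted p = 0.0802). The tamoxifen values of Slc16a1 lay within a narrow range, all far above those of oil. Of the other 10 higher genes, Hspa5 and Rpn1 (glycosylation of new proteins) work in the endoplasmic reticulum, Cpox in haem synthesis, Pgam1 in glycolysis, Ndufa4 in the respiratory chain and Vegfa in the growth of blood vessels. The remaining 4 were Tcfec, Hist1h2bk, Sat1 and Ppa1.

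Of the 12 lower genes, Kit, the receptor for stem cell factor by which progenitors are sorted, stood at 646, 633 and 653 normalised CPM with tamoxifen, against 873, 910 and 794 with oil. The log2 difference of Kit was -0.41 ± 0.11 (SE, limma adjusted p = 0.269). Itpr2, a calcium channel of the endoplasmic reticulum, stood at 54.1, 57.5 and 65.7 with tamoxifen, against 88.0, 98.7 and 89.4 with oil (limma adjusted p = 0.115). Plcg1, the phospholipase C that acts below receptor tyrosine kinases, stood at 68.1, 77.5 and 68.3 with tamoxifen, against 108, 112 and 89.1 with oil (limma adjusted p = 0.345). The focal adhesion gene Tns1 and the non-muscle myosin gene Myh9 were also in this group, with Mta3, Gltscr1, Gpr97, Bahcc1, Ahdc1, Rgl1 and Leng8.

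Red cell genes were the gene group with the highest median. Of 23 measured genes of the red cell membrane and the carbonic anhydrases, 21 lay above 0 (50% of all genes did), 11 were higher at an unadjusted p under 0.05 (3.16% of all genes were), 1 (Gypc) was lower, and the median log2 difference was 0.87. Haemoglobin and haem synthesis genes lay above 0 in 17 of 19 cases, with 4 higher at an unadjusted p under 0.05 and a median of 0.31. Tamoxifen library 2 was the highest in 15 of these 19 (15.9% of all genes were highest there). Without it 12 lay above 0, 1 was higher at an unadjusted p under 0.05 (2.54% of all genes in that fit) and the median was 0.0857. Cpox, which makes the protoporphyrin precursor in mitochondria, stood at 34.8, 60.7 and 42.1 with tamoxifen, against 25.8, 25.1 and 22.8 with oil (limma adjusted p = 0.356). The transcription factors and receptors of erythroid and megakaryocyte cells did not share this pattern, with 13 of 21 above 0 and a median of 0.05. Of them Gfi1b, a repressor needed for red cell and platelet formation, stood at 22.2, 27.3 and 29.5 with tamoxifen, against 8.24, 9.88 and 31.3 with oil (limma adjusted p = 0.842). In oil library 3 it was thus as high as with tamoxifen.

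Markers of erythroblasts, the red cell precursors that a sort of MPPs should leave out, went with this group, and of the 16 markers 7 are also on the red cell membrane list and 6 on the haemoglobin and haem list. All 16 measured markers lay above 0 (50% of all genes did), none passed and 5 were higher at an unadjusted p under 0.05 (3.16% of all genes). All 16 had their highest value in tamoxifen library 2 (15.9% of all genes did). Their summed level ran from 151 to 644 normalised CPM with tamoxifen, against 132 to 172 with oil. Hbb-b1 and Klf1 were picked as examples after their values were seen. Hbb-b1, a haemoglobin gene with near copies among which its reads may be split, stood at 21.8, 153 and 2.42 with tamoxifen, against 13.6, 12.5 and 2.77 with oil. Klf1, the master regulator of erythroid genes, stood at 0.914, 5.56 and 0.713 with tamoxifen, against 0.946, 1.86 and 0.396 with oil. In such bulk samples more cells of a type and more RNA per cell cannot be told apart. Without tamoxifen library 2, the erythroblast markers lay above 0 in 11 of 16 cases, with a median of 0.17 and none at an unadjusted p under 0.05. The red cell membrane list without that library lay above 0 in 19 of 23 cases, with 6 higher at an unadjusted p under 0.05 (2.54% of all genes in that fit) and a median of 0.48. Its count at an unadjusted p under 0.05 was 5 without oil library 3. The part of other cells in the levels of these genes was not tested.

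Genes that fold and modify proteins in the endoplasmic reticulum lay mostly above 0. Their median log2 difference from the oil mean was 0.27, 0.13 and 0.29 in the tamoxifen libraries, against -0.03, -0.10 and 0.13 in the oil libraries, so that tamoxifen library 2 and oil library 3 were level. Of 28 measured chaperone genes, 24 lay above 0, 5 were higher and 0 lower at an unadjusted p under 0.05 (3.16% and 2.52% of all genes), and in 9 every tamoxifen library lay above every oil library (7.66% of all genes). None passed in limma. Hspa5, whose promoter is shown above, stood at 581, 404 and 510 normalised CPM with tamoxifen, against 281, 236 and 397 with oil (limma adjusted p = 0.242). Oil library 3 was close to tamoxifen library 2 in this gene. Calr, a calcium-binding chaperone, stood at 286, 325 and 411 with tamoxifen, against 254, 231 and 298 with oil (limma adjusted p = 0.653). Pdia4, a disulphide isomerase, stood at 99.0, 94.0 and 107 with tamoxifen, against 74.996, 66.6 and 78.5 with oil (limma adjusted p = 0.686). The list's median was 0.27, and between 0.23 and 0.33 without any 1 of the 6 libraries, while its count of 5 was 3 without oil library 2 and 8 without oil library 3.

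Nuclear genes of the mitochondrial respiratory chain lay above 0 in 53 of 59 cases, with a median of 0.25. In 19 the groups did not overlap and tamoxifen was higher (7.66% of all genes), 6 were higher at an unadjusted p under 0.05 (3.16%) and none passed. Tamoxifen library 1 was the highest in 36 of the 59 (18.7% of all genes were highest there). Without it the 6 became 2 (3.39% of the list, against 2.65% of all genes in that fit) and the median 0.21. Ndufa4, a subunit of cytochrome c oxidase, stood at 134, 103 and 109 normalised CPM with tamoxifen, against 69.0, 64.0 and 99.9 with oil (limma adjusted p = 0.361). Cycs, which encodes cytochrome c, stood at 41.5, 35.3 and 38.6 with tamoxifen, against 25.3, 25.1 and 30.2 with oil (limma adjusted p = 0.79). The proteins that mitochondria encode themselves lay above 0 in 2 of 13 cases, with a median of -0.13. They split the tamoxifen libraries. In 11 of 13 they were lowest in tamoxifen library 3 (17.8% of all genes were). In 9 of 13 they were highest in tamoxifen library 1 (18.7% of all genes were). Without tamoxifen library 3 their median was 0.02 with 8 of 13 above 0. Antioxidant genes lay above 0 in 26 of 32 cases (50% of all genes did), with a median of 0.22. At an unadjusted p under 0.05, 6 were higher (3.16% of all genes), or 3 without oil library 3 (3.39% of all genes in that fit). Gpx1, the main cytosolic glutathione peroxidase, stood at 337, 305 and 381 with tamoxifen, against 220, 226 and 297 with oil (limma adjusted p = 0.739). Glycolysis and hypoxia genes lay above 0 in 20 of 27 cases, with a median of 0.20 and 5 higher at an unadjusted p under 0.05 (3.16% of all genes). Without tamoxifen library 1 the 5 became 2 (2.65% of all genes in that fit) and the median 0.14. In this list Pgam1, a glycolytic mutase, stood at 224, 204 and 304 with tamoxifen, against 156, 154 and 173 with oil (limma adjusted p = 0.296).

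Lymphoid-primed genes, which mark the MPPs nearest to the lymphoid branch, stood lower. Of 22 measured, 21 lay below 0 with a median of -0.34, and 5 were lower at an unadjusted p under 0.05 (2.52% of all genes were), with none past the threshold. In 8 of the 22 every tamoxifen library lay below every oil library (7.23% of all genes). Foxp1, a factor needed for B cell development, stood at 276, 298 and 294 normalised CPM with tamoxifen, against 390, 397 and 346 with oil (limma adjusted p = 0.518). Tcf4, the E protein E2-2, stood at 256, 231 and 253 with tamoxifen, against 312, 285 and 299 with oil (limma adjusted p = 0.842). Ccr9, a chemokine receptor of thymus-seeding cells, stood at 2.94, 5.33 and 2.14 with tamoxifen, against 21.2, 15.04 and 2.24 with oil, so that oil library 3 lay among the tamoxifen libraries (limma adjusted p = 0.842). The list's median lay between -0.33 and -0.27 without any 1 of the 6 libraries, while its count of 5 fell to 1 without oil library 1 and to 2 without oil library 2, tamoxifen library 1 or tamoxifen library 2.

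The genes used to tell MPPs from stem cells moved in part the same way. Of 15 measured genes typical of MPPs, 11 lay below 0 with a median of -0.27, and Cd33 stood at 29.9, 47.5 and 35.8 normalised CPM with tamoxifen, against 88.0, 83.5 and 60.9 with oil (limma adjusted p = 0.518). Ccr2, a monocyte chemokine receptor on the same list, stood higher, at 33.8, 41.4 and 72.0 with tamoxifen, against 16.1, 14.2 and 37.6 with oil (limma adjusted p = 0.549). Flt3 stood at 529, 535 and 575 with tamoxifen, against 695, 703 and 646 with oil (limma adjusted p = 0.986), and Cd48 at 41.3, 38.4 and 66.0, against 68.0, 82.6 and 65.3 (limma adjusted p = 0.761). Genes of long-term stem cells lay above 0 in 15 of 31 cases with a median of -0.0012, but the tamoxifen libraries differed, with medians of 0.18, 0.16 and -0.23 from the oil mean. Without tamoxifen library 3, 23 of 31 lay above 0 with a median of 0.14, and 5 were higher at an unadjusted p under 0.05 (3.11% of all genes in that fit). Mecom, a transcription factor that stem cells need, stood at 230, 211 and 141 with tamoxifen, against 129, 105 and 182 with oil (limma adjusted p = 0.674).

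The lists that bear on proliferation and survival gave small values. Mitosis genes lay above 0 in 41 of 44 cases with a median of 0.18, but in 39 of the 44 the lowest of the 6 libraries was oil library 1, and without that library 21 of 44 lay above 0 with a median of -0.03. Cdk1, the kinase that drives entry into mitosis, stood at 44.8, 45.9 and 60.03 normalised CPM with tamoxifen, against 27.2, 42.0 and 44.5 with oil (limma adjusted p = 0.874). DNA replication genes lay above 0 in 32 of 41 cases with a median of 0.09, and ribosome biogenesis genes in 36 of 37 with a median of 0.10. The 4 measured pro-survival members of the BCL2 family had a median of -0.0041 and the 8 pro-death members -0.09, and no member of either list had an unadjusted p under 0.05. Targets of p53 lay above 0 in 10 of 24 cases with none at an unadjusted p under 0.05. Receptors for growth factors and cytokines lay above 0 in 20 of 42 cases, and those with the smallest p after Pdgfrb were Kit and Tgfbr2, which stood at 59.4, 57.3 and 59.2 with tamoxifen, against 89.3, 86.4 and 76.2 with oil (limma adjusted p = 0.488).

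**Figure D3:**
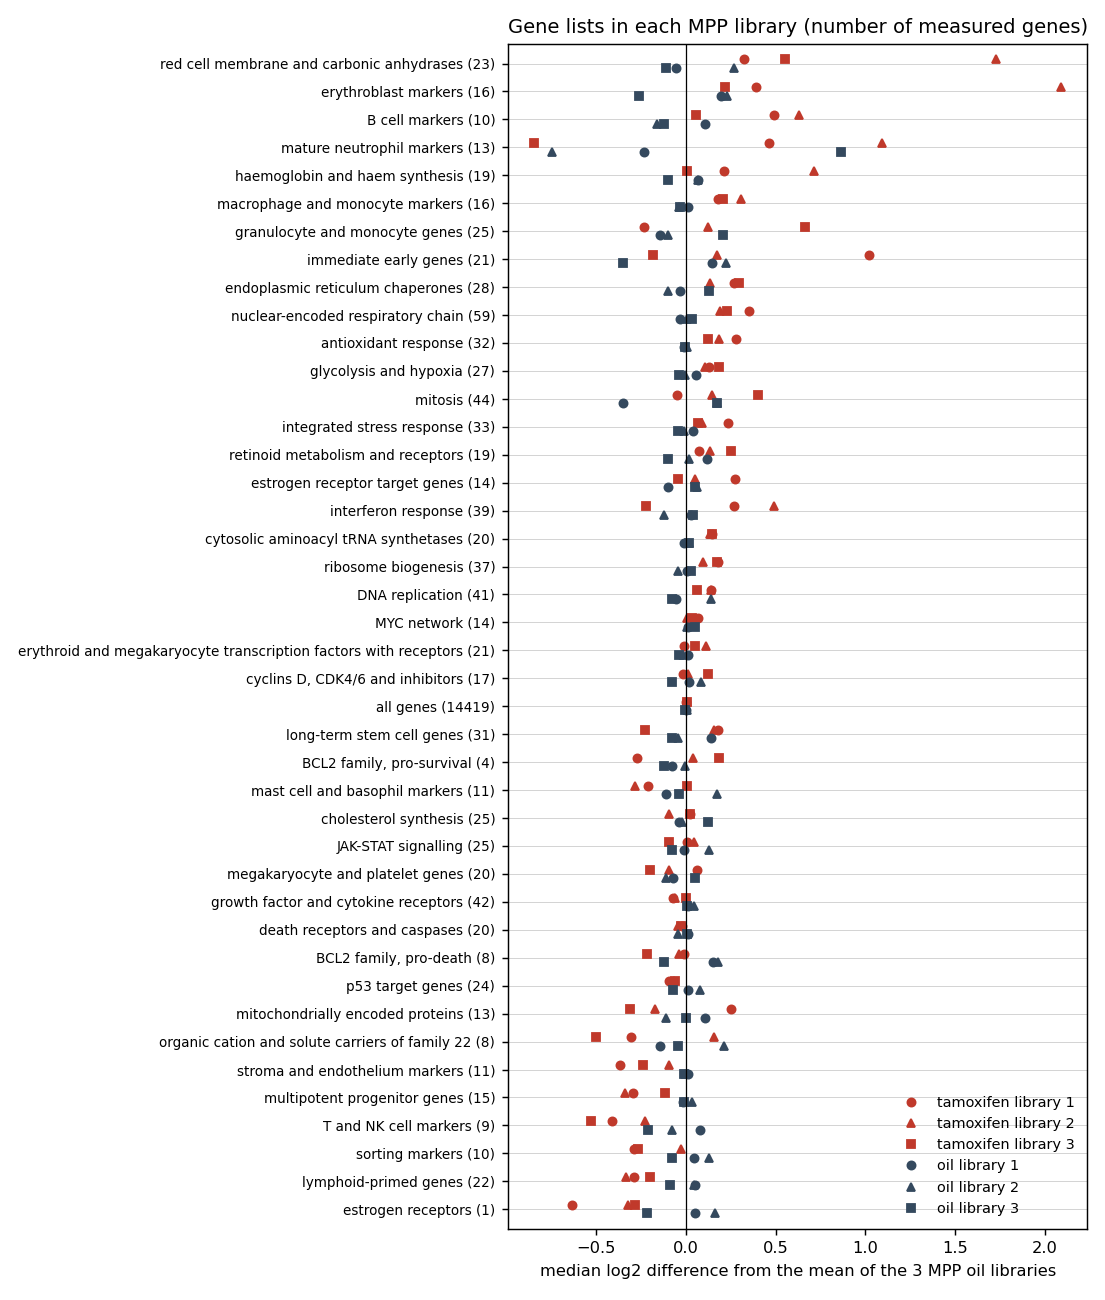
Median log2 difference of each of the 41 gene lists, and of all genes, from the mean of the 3 MPP oil libraries (horizontal axis) in each MPP library: tamoxifen in red, set above oil in grey, with the library number given by the shape and the number of measured genes in brackets. Chaperone, respiratory chain and lymphoid-primed genes hold the 3 tamoxifen libraries on one side of 0, while erythroblast markers, immediate early genes, granulocyte-monocyte genes and neutrophil markers spread the tamoxifen libraries apart.

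The 3 tamoxifen libraries differed among themselves in whole gene groups. Of the genes named in this paragraph, Egr1, Fos, Mpo, Elane, Slc4a1, S100a9 and Ngp were chosen after their values were seen. Tamoxifen library 1 held the highest value of the 6 for 18 of 21 immediate early genes, the first genes that cells switch on when stimulated or handled (18.7% of all genes were highest there). Egr1 stood at 401, 104 and 42.1 normalised CPM with tamoxifen, against 110, 92.7 and 45.3 with oil, and Fos at 117, 50.5 and 33.2, against 42.8, 48.5 and 17.0. The list's median log2 difference was 0.28, with 20 of 21 above 0, and -0.08 with 8 of 21 above 0 without that library.

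Tamoxifen library 2 held the highest value for 18 of 23 genes of the red cell membrane, for all 16 erythroblast markers and for 22 of 39 interferon response genes (15.9% of all genes were highest there). Slc4a1, the band 3 anion exchanger of red cells, stood at 7.82, 64.8 and 1.85 normalised CPM with tamoxifen, against 4.46, 8.45 and 3.56 with oil. Interferon genes were at their lowest in tamoxifen library 3 in 22 of 39 cases. Of them Ifitm3, an antiviral membrane protein, had the smallest p, with 290, 281 and 228 with tamoxifen, against 192, 171 and 196 with oil (limma adjusted p = 0.584).

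Tamoxifen library 3 held the highest value for 16 of 25 granulocyte and monocyte genes and for 30 of 44 mitosis genes (18.1% of all genes were highest there). Mpo, the myeloperoxidase of granulocyte precursors, stood at 499.6, 751 and 2258 normalised CPM with tamoxifen, against 623, 791 and 1018 with oil, and Elane, the neutrophil elastase, at 33.4, 80.2 and 143, against 29.6, 44.0 and 62.2. Markers of mature neutrophils split both groups: S100a9 stood at 105, 165 and 38.4 with tamoxifen, against 46.6, 30.2 and 151 with oil, and Ngp at 104, 192 and 60.3, against 86.9, 63.2 and 173. Tamoxifen library 2 and oil library 3 were the highest for neutrophil markers, and tamoxifen library 3 was the lowest in 9 of 13.

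**Figure D4:**
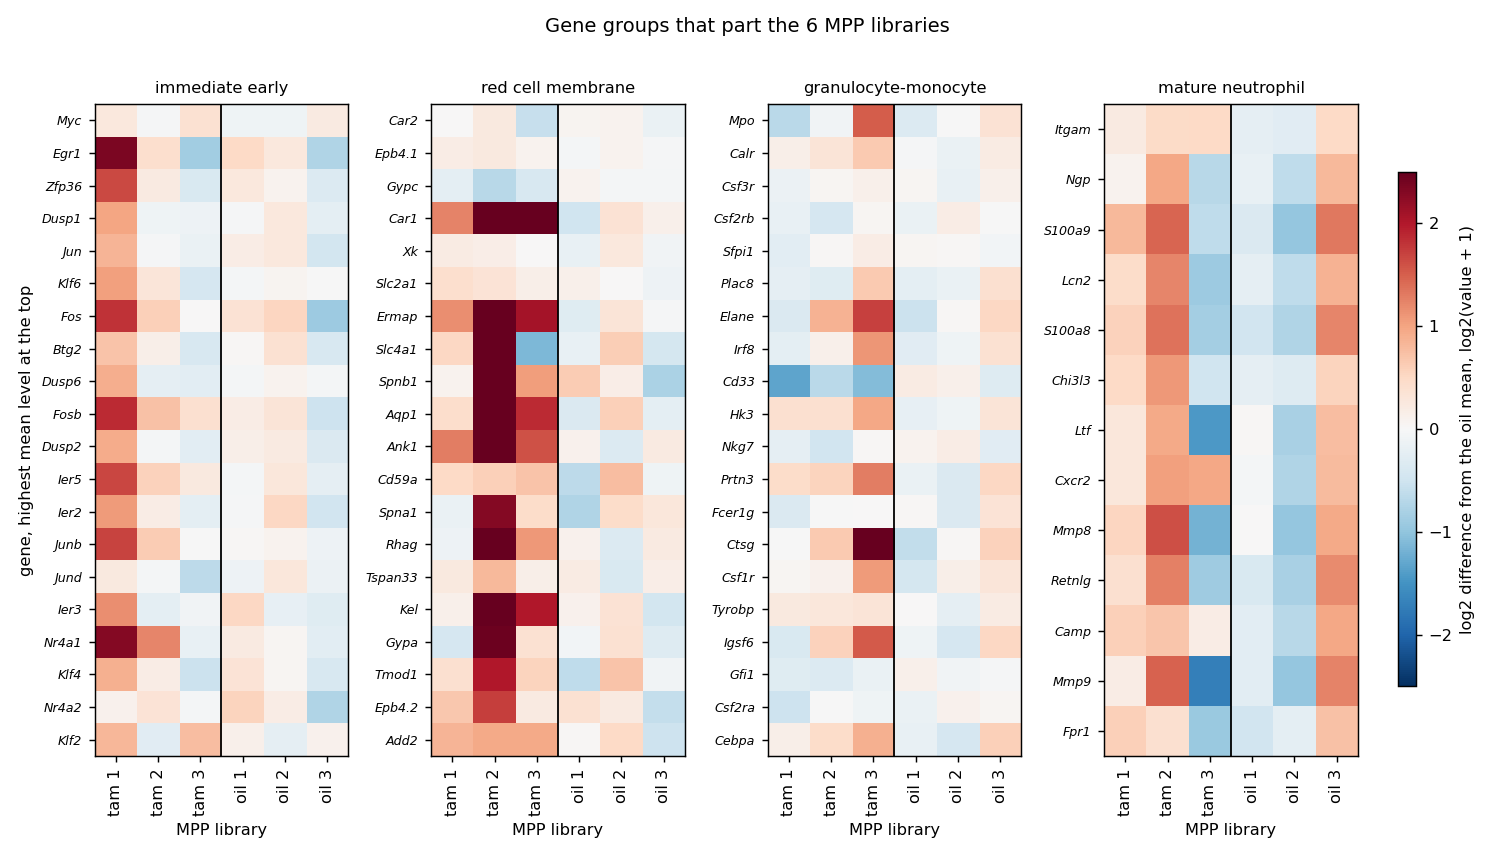
Log2 difference from the mean of the 3 MPP oil libraries (colour, on log2(value + 1), clipped at 2.5 in either direction) of up to 20 genes of 4 lists, with the highest mean levels at the top, in the 3 tamoxifen libraries (left of the line) and the 3 oil libraries (right). Immediate early genes are highest in tamoxifen library 1, red cell genes in tamoxifen library 2, granulocyte-monocyte genes in tamoxifen library 3, and neutrophil markers in tamoxifen library 2 and oil library 3.

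Oil library 3 differed from the other oil libraries in a set of genes. Without it, 28 genes passed higher and 12 lower, 7 of the 8 among them. In 31 of these 40 genes its level lay nearer to the tamoxifen mean than to the mean of oil libraries 1 and 2, a share that the way the 40 were found favours. The genes named next were chosen after their values were seen. Thbs1, the adhesion protein thrombospondin 1, stood at 40.1, 29.1 and 27.8 normalised CPM with tamoxifen, against 2.30, 0.43 and 25.7 with oil. Mrc2, a collagen receptor, stood at 17.2, 23.5 and 14.97 with tamoxifen, against 0.676, 0.143 and 11.2 with oil. Slc18a2, which loads monoamines into vesicles, stood at 85.8, 86.8 and 75.7 with tamoxifen, against 39.1, 35.7 and 76.4 with oil. St8sia1, which makes gangliosides, ran the other way, at 4.16, 8.05 and 2.14 with tamoxifen, against 29.6, 28.8 and 3.83 with oil. In each of these 4 genes oil libraries 1 and 2 lay apart from the remaining 4 libraries. No source used here says in what oil library 3 differs.

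Markers of other cells that a sort could hold were at low or moderate levels in both groups, and no measured marker was at 0 reads in all 6 libraries. Summed levels ran from 408 to 986 normalised CPM with tamoxifen, against 319 to 878 with oil, for mature neutrophils. They ran from 609 to 809 with tamoxifen, against 498 to 569 with oil, for macrophages and monocytes, and from 712 to 814, against 497 to 575, for B cells. They ran from 38.9 to 48.6, against 45.0 to 59.9, for T and NK cells, and from 169 to 254, against 250 to 257, for stroma and endothelium. Mast cell and basophil markers summed to 929 to 1008, against 1167 to 1256, a list in which Kit and Srgn make up most of the sum. The sums of macrophage, B cell and mast cell markers thus did not overlap between the groups, and the part of such cells in the other values was not tested.

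The 8 genes were also measured in the LT and ST cells after 2 weeks, in libraries that share no control with the MPPs. The tests do share an estimate of each gene's spread over all 18 libraries. All 8 differed in the same direction in ST cells and passed there (ST cells had 1386 genes past the threshold, 9.61% of all), and all 8 had the same direction in LT cells, where Pdgfrb alone passed (60 genes, 0.416%). Of the 24 genes named behind the 8, 20 had the same direction in ST cells, where 11 passed, and 21 in LT cells, where 3 passed. Asns had a log2 difference of 1.14 ± 0.20 in ST cells, against 1.13 ± 0.20 in MPPs, and the difference between them was -0.01 with a 95% interval of -0.60 to 0.58. Greb1 differed by 0.05 between MPPs and ST cells (-0.98 to 1.08). For 5 of the 8 genes the interval of the difference between MPPs and LT cells lay away from 0 (Aldh1a1, Asns, Ank1, Slc22a3 and Ermap), with the largest difference for Aldh1a1 at 1.70 (0.87 to 2.52), but none passed when adjusted over all genes (limma adjusted p from 0.323 for Aldh1a1 to 0.943 for 2900026A02Rik).

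Levels in oil set the populations apart for these genes. Aldh1a1, Asns, Ank1 and Ermap were lowest in MPPs, intermediate in ST cells and highest in LT cells. Ermap averaged 4.81 normalised CPM in MPPs, 17.4 in ST cells and 272 in LT cells, and Ank1 1.58, 5.84 and 87.3 in the same order. Aldh1a1 averaged 0.681, 13.9 and 66.0, and Asns 6.52, 9.40 and 47.9. With tamoxifen the MPP means of Ermap and Ank1 were 26.1 and 10.3, far below the LT oil means. In tamoxifen library 1 both genes stayed below the ST oil means, and in tamoxifen library 2 both stood highest. Pdgfrb had the opposite order, at 55.2 in MPPs, 37.0 in ST cells and 19.7 in LT cells, and averaged 22.01 in MPPs with tamoxifen. Greb1 averaged under 1 in oil in all 3 populations, and Slc22a3 was highest in ST cells. These orders are descriptions without a test, and population and time of treatment cannot be told apart between MPPs and the rest.

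**Figure D5:**
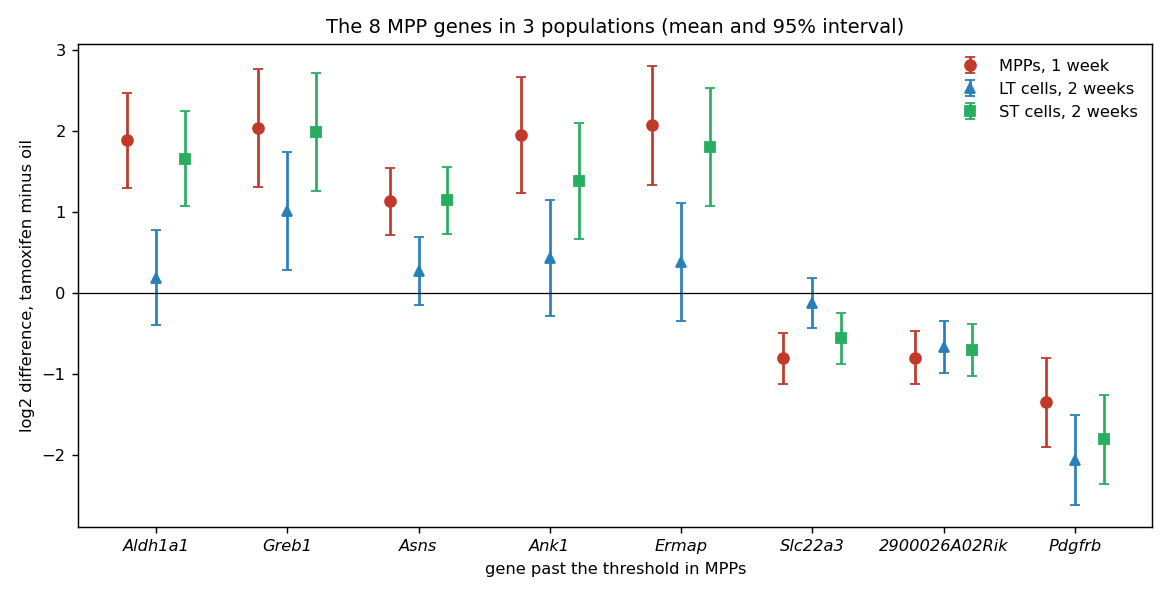
Log2 difference between tamoxifen and oil (vertical axis) of the 8 MPP genes in MPPs after 1 week (red circles), LT cells after 2 weeks (blue triangles) and ST cells after 2 weeks (green squares). Points are fitted means and bars 95% intervals (n = 3 against 3 libraries each), and in all 3 populations the points lie on the same side of 0.

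Across all genes, the tamoxifen effect differed between MPPs and LT cells for 0 genes in limma (808 at an unadjusted p under 0.05, 5.6%; no other tool was run on this difference) and between MPPs and ST cells for 1 gene, Tcof1 (0.00694%; 1742 at an unadjusted p under 0.05, 12.1%). Without the LT tamoxifen library that stood apart these counts were 0 and 164. The genes called in ST cells gave a view of the MPP libraries in which each gene's direction came from ST values alone. Their adjusted p came from the shared fit, whose spread includes the MPP libraries. Signed by their direction in ST cells, these 1386 genes had a median log2 deviation from the MPP mean of 0.10, 0.03 and 0.05 in tamoxifen libraries 1, 2 and 3, and of -0.10, -0.03 and -0.04 in oil libraries 1, 2 and 3. All tamoxifen libraries thus lay on the side of tamoxifen and all oil libraries, oil library 3 included, on the side of oil. In size the shift was small: genes higher in ST cells (6.01% of all) had a median log2 difference of 0.10 in MPPs and 0.63 in ST cells, and genes lower there (3.6%) -0.15 in MPPs and -0.97 in ST cells. Of the 1386 genes, 75.4% had the same sign in MPPs, as did 57.5% of all genes. The 60 genes called in LT cells gave 0.24, 0.19 and 0.03 in the tamoxifen MPP libraries, and -0.17, -0.17 and -0.08 in the oil libraries.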

How the data were processed

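RNA from sorted mouse marrow cells was extracted with Picopure, amplified to cDNA with Ovation RNA-Seq V2, sonicated and joined to TruSeq DNA adaptors, per the labels' protocols. The submitters' processing notes name Picard, cutadapt, RSEM 1.17, limma and the build NCBIM37 and no source used here gives the annotation, the strand setting or the scaling. A single table was deposited by the authors, which holds a normalised signal (normalised CPM in the text) of 14419 genes in 18 libraries without coordinates. Within each library every value was a whole read number plus 0.5, times 1 constant (100% of values within 0.001 of a whole read). Intervals from reads cover counting error only. The p-values of the main fit use each gene's spread between replicate libraries, pooled over all 18 libraries. The spread in LT and ST cells thus enters an MPP p-value. A gene whose MPP libraries lie close together within each group, such as Ighm, can therefore still have a high p.

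From the deposited values, log2(value + 1) was fitted in limma 3.58.1 (R 4.3.3) with 6 group means over all 18 libraries (12 residual degrees of freedom) and trend and robust settings; p-values were adjusted by Benjamini-Hochberg over all genes, at 0.05. Fold changes on this scale understate the change of low genes. A filter (3 libraries or more at a value of 1) took out 0 genes. On simulated data of this comparison with 14419 genes, limma recovered 50% of genes changed by a log2 of 1 and 100% at 2. Some measured genes beyond a log2 of 2 passed, as Greb1 (2.03) and Ermap (2.07) did. Others did not, such as Igkc at 3.71 (limma adjusted p = 0.661), Thbs1 at 2.72 (0.488) and Car1 at 2.27 (0.064). The share recovered at the levels and spreads of the measured genes was not tested. Alternatives were another pseudocount, quantile normalisation, a filter at a mean of 5, library weights, fits on other libraries, edgeR 4.0.16 and DESeq2 1.42.0 on the recovered reads. The 41 gene lists (887 of 984 entries measured) and the comparison itself were chosen with earlier results of these data known, so lists are described by counts and medians. The text names each gene past the threshold, the 12 higher and 12 lower next genes with named symbols, above-median levels and groups that do not overlap, the 3 smallest p of each list, the estrogen receptors and the sorting markers; other genes are marked as chosen after their values were seen. Promoters are RefSeq windows on GRCm38.p6, and as this is not the build of the files no other coordinates are given.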

Additional observations from a re-analysis of the deposited data

Results flagged for a closer look

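Tcof1, which encodes treacle, a nucleolar protein needed to make ribosomal RNA, was the one gene whose tamoxifen effect differed between MPPs and ST cells by a test of the difference itself. The difference of the log2 effects was -1.17 ± 0.20 (SE, limma adjusted p = 0.0441). In MPPs it stood at 97.6, 92.4 and 97.1 normalised CPM with tamoxifen, against 111, 133 and 98.9 with oil, a log2 difference of -0.24 that did not pass (limma adjusted p = 0.931). In ST cells it averaged 93.1 ± 4.33 with tamoxifen and 49.1 ± 8.92 with oil (SD, n = 3 each), a log2 difference of 0.92 that passed (limma adjusted p = 0.000274). The call rests on 1 week in MPPs against 2 weeks in ST cells, so population and time cannot be told apart. It was lost without tamoxifen library 1, tamoxifen library 2, oil library 1 or oil library 2 of the MPPs, leaving 0 genes in each of these fits, and was also lost when the trend and the robust setting were both dropped.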

How the results depend on the processing

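The count of 8 genes in MPPs depended on the model of the spread. It was 2 with no trend and no robust setting, 67 with library weights, 19 with the 6 MPP libraries alone, 28 with DESeq2 and, in an alternative chosen after seeing the data, 22 without the LT tamoxifen library that stood apart. It was 11, 8, 10 and 6 with a pseudocount of 0.5, a pseudocount of 5, quantile normalisation and a mean of at least 5, and 6 with edgeR. With the pseudocount of 5 the split was 2 higher and 6 lower, with 0.5 it was 9 and 2. Leaving out each MPP library in turn gave 0 to 40 genes. A replicate block in the 6 MPP libraries gave 102 genes. Deviations of same-numbered tamoxifen and oil libraries correlated at r = 0.08, -0.0031 and 0.13. Those of differently numbered libraries ran from -0.13 to 0.06. The labels do not say whether a number marks a shared animal or day, and so few values cannot decide it. For the difference between MPPs and LT cells the count of 0 became 2 with library weights and 0 to 4 leaving out each MPP library. For MPPs and ST cells the count of 1 became 9 with quantile normalisation, 0 with no trend and no robust setting, 155 with library weights, 164 without the LT tamoxifen library and 0 to 5 leaving out each MPP library. The 8 genes kept their direction in every alternative that gave a value, and the highest adjusted p over them was 0.162 for Greb1, 0.179 for Asns, 0.222 for Aldh1a1, 0.317 for Ank1, 0.332 for Slc22a3, 0.354 for Ermap, 0.497 for Pdgfrb and 0.584 for 2900026A02Rik. Among the other named genes 11 values changed sign, all of genes that did not pass: Slamf1 became 0.0028 with a pseudocount of 5, 0.0757 with library weights, 0.12 with edgeR and 0.12 with DESeq2, and ran from -0.25 to 0.19 leaving out each MPP library. In the same way Bcl2l2 ran from -0.46 to 0.0185, Mcl1 from -0.10 to 0.21 and Procr from -0.72 to 0.26. Of the list medians 336 values moved by less than the SD of the list's own medians in the 3 tamoxifen libraries, and 33 by more. A list led by 1 tamoxifen library has a wide SD, so this count does not measure stability. The median of the erythroblast markers, for example, went from 0.83 to 0.17 without tamoxifen library 2. Low genes such as Greb1 and Aldh1a1 rest on under 10 reads with oil. The cause of these shifts was not tested.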

Other observations

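Immunoglobulin genes, looked at after their values were seen, gave some of the widest differences between the libraries. Igkc, the constant region of the kappa light chain, stood at 70.8, 326 and 158 normalised CPM in the tamoxifen MPP libraries, against 39.6, 23.6 and 0.66 in the oil libraries. Its log2 difference of 3.71 ± 1.167 (SE) did not pass (limma adjusted p = 0.661), though all tamoxifen values lay above all oil values. Igj, the joining chain of secreted antibodies, stood at 16.3, 32.1 and 14.4 with tamoxifen, against 7.70, 1.58 and 0.132 with oil (limma adjusted p = 0.454). Ighm, the heavy chain of IgM, stood at 505, 543 and 525 with tamoxifen, against 392.01, 374 and 326 with oil (limma adjusted p = 0.976). Variable segments were present in some libraries and near 0 in others: Ighv11-2 stood at 23.2, 25.3 and 0.143 with tamoxifen, against 6.89, 0.143 and 0.132 with oil, and Igkv14-126 at 17.97, 31.0 and 0.143, against 5.81, 0.143 and 0.132. Sdc1, the plasma cell marker CD138, stood at 16.5, 16.9 and 17.3 with tamoxifen, against 18.5, 17.0 and 13.1 with oil. Members of these gene families share sequence, so their reads may be split among near copies.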
